A study of Mus musculus with 37 samples.

Results

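Osteopontin is a secreted phosphoprotein encoded by Spp1, and it is described here with 4 of its receptor genes and with Gpnmb. The 6 genes were taken by name from the deposited counts. They are Spp1, the ligand; Cd44, a receptor for hyaluronan and osteopontin; Itgav, Itgb1 and Itgb5, which encode the integrin subunits alpha V, beta 1 and beta 5; and Gpnmb, a transmembrane glycoprotein. All 6 were present, of 14546 genes found in either of the tables, one for macrophages and one for fibroblasts, and all 6 passed the filter on low counts in both. The study measured polyadenylated RNA by 3′ end sequencing of sorted bulk cells, with 16 libraries of macrophages and 21 of fibroblasts from BALB/c females aged 8 weeks. It asked how each cell type differs when both are grown together, and how the organ of the fibroblasts bears on that.

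The labels name no engineered allele and no agent added to any group. Macrophages were grown from bone marrow for 7 days with medium conditioned by L929 cells, mouse cells known as a source of CSF1, on which macrophages depend. They were collected at that point (day 0, n = 4 libraries) or after 7 days with fibroblasts of mesometrial fat, lung or mammary fat pad (n = 4 for each organ). Fibroblasts were expanded in culture, depleted with beads of cells carrying the epithelial protein EpCAM or the leukocyte protein CD45, and grown in DMEM on collagen I for 7 days. Those with macrophages numbered 3 libraries for fat, 3 for lung and 5 for mammary gland. Those alone numbered 2, 3 and 5. Mammary and fat fibroblasts were pooled from 2 females for each replicate. Live cells positive for F4/80 and CD11b were sorted as macrophages, and live cells negative for both as fibroblasts. The day 0 macrophages had not been kept for 7 days in DMEM, since per the series' design they do not survive there alone, so that time, medium and the fibroblasts' presence cannot be told apart in any difference from day 0.

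Osteopontin is made by macrophages, osteoclasts, activated fibroblasts and many epithelia, and it is abundant in healing and fibrotic tissue and in tumours. It carries an RGD motif that integrins containing alpha V bind, and cells also meet it through CD44, so that a cell can both secrete it and respond to it. GPNMB sits in the membranes of lysosomes, phagosomes and the cell surface, is known from macrophages laden with lipid and from osteoclasts, and has been reported to bind CD44 and integrins.

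In the annotation of mouse build GRCm38, Spp1 lies on the plus strand at chr5:104435118-104441050, Cd44 on the minus strand at chr2:102811141-102901665, and Itgav on the plus strand at chr2:83724397-83806916. Itgb1 lies at chr8:128685654-128733200, Itgb5 at chr16:33829665-33949338 and Gpnmb at chr6:49036546-49070929, all on the plus strand. Spp1, Cd44 and Itgav overlap other annotated genes, none of them in the last 1000 bases, where 3′ end reads fall. The promoters of the ligand and of Gpnmb are shown because Spp1 rose and Gpnmb fell in macrophages with the fibroblasts of every organ. Each runs from 250 bases before to 50 bases after the start site, in RefSeq's annotation of GRCm38.p6, at chr5:104434861-104435160 for the first of the pair of Spp1 promoters and chr6:49036268-49036567 for Gpnmb, both read on the plus strand. Capitals mark the motif matches found.
Spp1 promoter: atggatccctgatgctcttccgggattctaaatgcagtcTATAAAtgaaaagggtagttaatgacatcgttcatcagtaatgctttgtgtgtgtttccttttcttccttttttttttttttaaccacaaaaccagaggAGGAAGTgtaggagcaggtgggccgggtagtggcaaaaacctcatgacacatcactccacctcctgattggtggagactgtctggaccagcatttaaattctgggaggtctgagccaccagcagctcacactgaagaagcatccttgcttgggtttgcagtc
Gpnmb promoter: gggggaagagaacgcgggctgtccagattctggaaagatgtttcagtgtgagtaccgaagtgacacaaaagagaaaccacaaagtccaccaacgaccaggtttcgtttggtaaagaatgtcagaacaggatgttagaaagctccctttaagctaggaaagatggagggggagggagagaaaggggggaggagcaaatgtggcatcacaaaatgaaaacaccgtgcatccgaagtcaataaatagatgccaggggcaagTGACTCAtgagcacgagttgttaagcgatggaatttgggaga
In the Spp1 promoter they are AGGAAGT, a form of the site of the macrophage factor PU.1, beginning 112 bases before the start, and TATAAA beginning 211 bases before it. In the Gpnmb promoter they are TGACTCA, a match to the AP-1 motif TGANTCA, beginning at base 9 after the start. Both strands were searched, and the motifs were found in 9.35%, 13.6% and 7.81% of 32851 RefSeq mouse promoters of the same length, respectively. Neither promoter, nor those of the other members, held the letters TCATGTG (the M-box, in 3.77% of promoters), TCACGTG (the core of the lysosomal CLEAR element, 3.77%) or CACGTG (the E-box, within that core, 7.15%), which MiT transcription factors are known to bind. These matches are letters in a window and say nothing of binding in these cells.

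The cell labels were checked against markers. Summed over 16 macrophage markers, macrophage libraries held 48078 to 81544 CPM (the count scaled by the library's TMM-adjusted total). Summed over 14 fibroblast markers, fibroblast libraries held 18307 to 54076 CPM. Of 6 lymphocyte markers, 0 were among the genes in the deposited counts of either cell type, so no level can be given for them. The depth was 3040103 to 6223115 counts per macrophage library and 3304605 to 7487355 per fibroblast library. Fibroblast markers summed to 7.04 to 19.0 CPM in day 0 macrophages and 127 to 537 CPM in co-cultured ones, over the 12 of 14 analysed there, of which Col1a1, Col5a1, Col6a3, Dcn, Fstl1 and Pdgfra were at 0 in 1 or more macrophage libraries. One lung mono-culture, replicate 3, is named lung in its title and mammary fat pad in other labels. It was kept with lung: its lung mesenchyme markers averaged 4.77 log2 CPM, near the other lung mono-cultures and above the mammary mean of 1.68. One fat mono-culture column carried no replicate number and is called the unnumbered library.

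In macrophages, Spp1 rose after co-culture with fibroblasts of each organ while Cd44 and Gpnmb fell in each. Itgb5 rose with fat and mammary fibroblasts, Itgav fell with lung fibroblasts, and Itgb1 rose by a small amount with mammary fibroblasts. Calls are an adjusted p under 0.05 in edgeR's quasi-likelihood test, adjusted by Benjamini-Hochberg over all genes tested. After fat co-culture 4 of 6 members were called (2 higher, 2 lower), where 30.2% of all 10295 genes tested were called (15.8% higher, 14.4% lower). With lung fibroblasts 4 were called (1 higher, 3 lower), against 27.8% of all genes (14.6% higher, 13.2% lower). With mammary fibroblasts 5 were called (3 higher, 2 lower), against 26.1% (14.4% higher, 11.8% lower). The 3 comparisons share the same day 0 libraries and are not independent of each other. In bulk samples, fewer cells with a transcript and less of it per cell cannot be told apart.

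Spp1 stood at 2294, 1566, 2095 and 1701 CPM in the 4 day 0 libraries. It reached 12919, 13027, 8584 and 8589 CPM with fat fibroblasts, 12747, 11006, 9693 and 9786 CPM with lung fibroblasts, and 15926, 10344, 11330 and 11452 CPM with mammary fibroblasts. Every co-cultured library was above every day 0 library, and the 3 co-cultured groups overlapped. The means were 12263 ± 2492 CPM with mammary, 10808 ± 1424 with lung and 10780 ± 2533 with fat fibroblasts, and 1914 ± 339 at day 0 (SD, n = 4 each). Spp1 took 1.06% of all counts on average after lung co-culture and 1.22% after mammary co-culture. The log2 change from day 0 was 2.49 ± 0.18 with fat fibroblasts (SE, edgeR adjusted p = 4.27e-09), 2.50 ± 0.18 with lung (5.23e-09) and 2.68 ± 0.18 with mammary fibroblasts (1.96e-09). Between partner organs the log2 differences were -0.00 (fat minus lung, edgeR adjusted p = 0.999), -0.19 (fat minus mammary, 0.648) and -0.18 (lung minus mammary, 0.643).

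**Figure D1:**
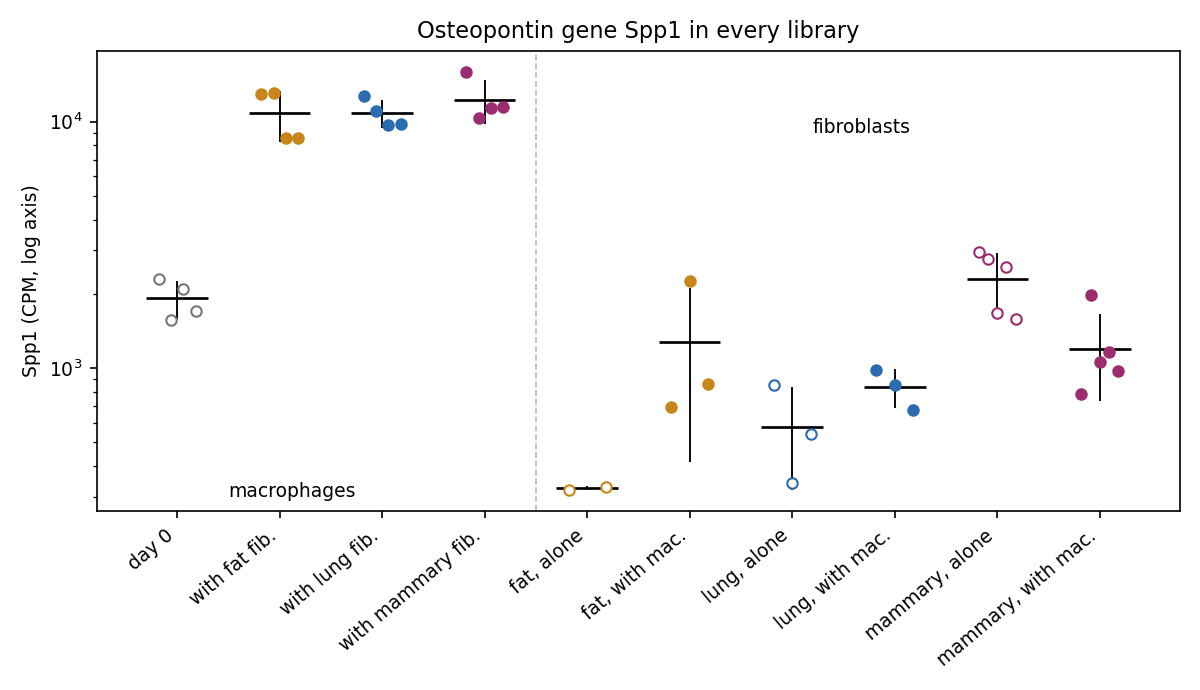
Spp1 level in CPM on a log axis for each library of the 10 groups, with bars at the mean ± SD. Open markers are day 0 macrophages or fibroblasts alone and filled markers are co-cultures. Co-cultured macrophages lie between 8584 and 15926 CPM, above day 0 macrophages and every fibroblast library, the cell types being scaled in separate tables.

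Among the receptors, Cd44 had 103, 63.5, 89.1 and 66.6 CPM at day 0. It had 39.5, 40.1, 34.1 and 40.3 CPM with fat, 45.9, 33.5, 44.3 and 34.7 CPM with lung, and 59.5, 54.5, 62.5 and 46.1 CPM with mammary fibroblasts. All 12 co-cultured libraries were below all day 0 libraries, with the mammary group reaching to just under the lowest day 0 value. The log2 change was -1.07 ± 0.16 with fat (edgeR adjusted p = 2.62e-05), -1.03 ± 0.16 with lung (4.28e-05) and -0.54 ± 0.15 with mammary fibroblasts (0.0120). The mammary call ended without day 0 replicate 1 (-0.40, edgeR adjusted p = 0.0670). Cd44 was lower with fat than with mammary fibroblasts by -0.53 ± 0.16 log2 (edgeR adjusted p = 0.0798) and lower with lung than with mammary by -0.49 ± 0.16 (0.0741), neither of them called with all libraries in 1 fit. The former was called with only the groups compared (-0.52, edgeR adjusted p = 0.0447), the latter without lung replicate 1 (-0.56, 0.0495) or mammary replicate 4 (-0.57, 0.0465).

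Itgav encodes the alpha V chain, which pairs with several beta chains to bind RGD ligands. It had 71.3, 48.8, 82.2 and 69.8 CPM at day 0, 57.4, 85.3, 56.7 and 72.9 CPM with fat, 41.6, 33.5, 30.0 and 21.9 CPM with lung, and 62.5, 55.6, 84.4 and 72.8 CPM with mammary fibroblasts. The lung co-cultures lay below all other macrophage libraries, whereas the other 3 groups overlapped. The log2 change from day 0 was -1.11 ± 0.20 with lung fibroblasts (edgeR adjusted p = 0.000292), -0.01 ± 0.19 with fat (0.985) and 0.01 ± 0.19 with mammary fibroblasts (0.982). Tested directly between partners, Itgav was higher with fat than with lung fibroblasts by 1.10 ± 0.20 log2 (edgeR adjusted p = 0.00230; 3.1% of all genes called, 2.06% higher) and lower with lung than with mammary fibroblasts by -1.12 ± 0.20 (0.00148; 5.59% of all genes called, 3.15% lower). The fat minus mammary difference was -0.02 ± 0.19 (0.982; 2.72% of all genes called, and 0 of 6 members, of which Cd44 and Itgb5 had an unadjusted p under 0.05, and 0 with DESeq2).

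**Figure D2:**
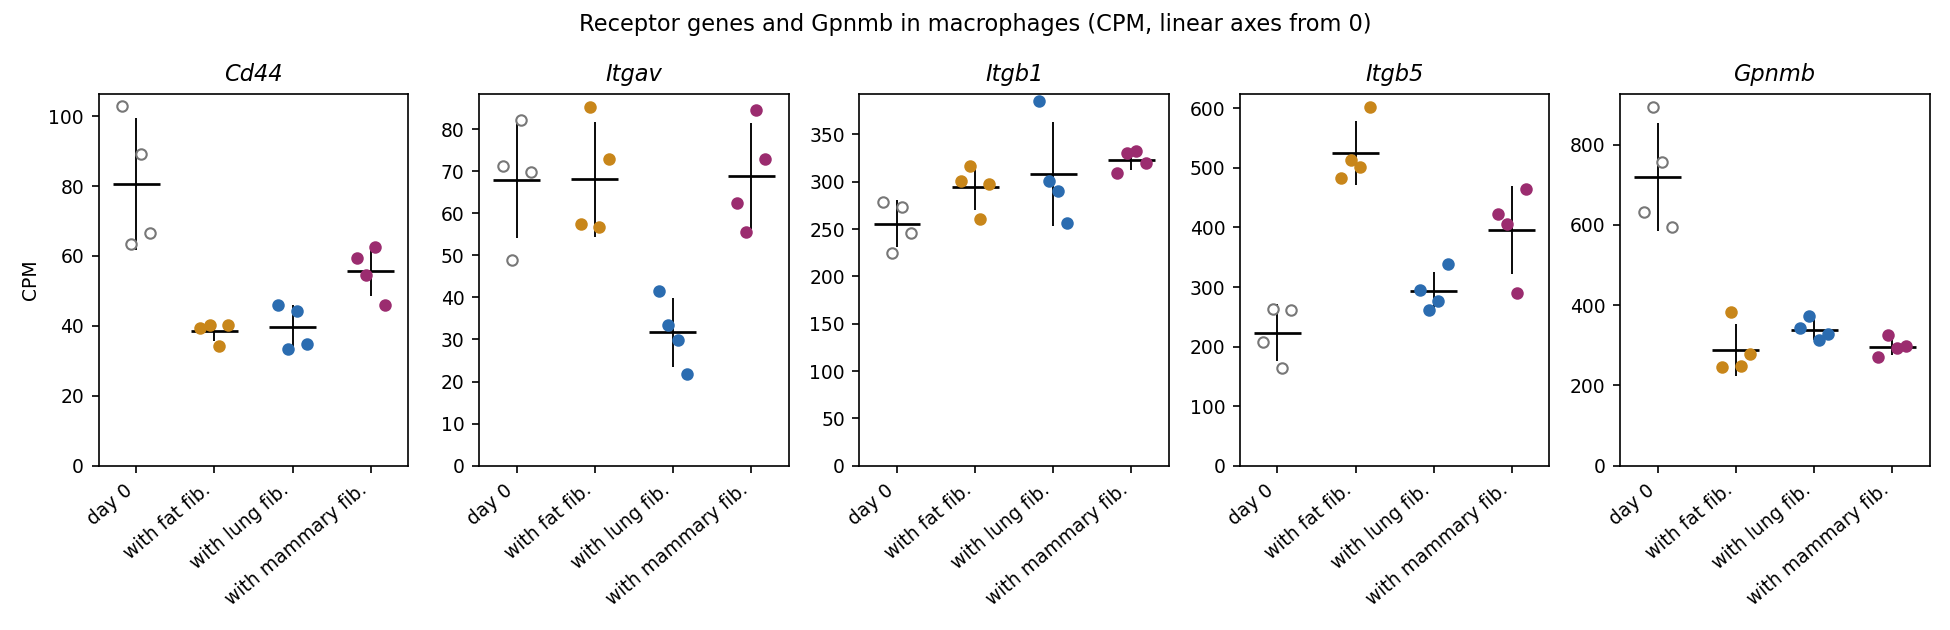
Level in CPM of Cd44, Itgav, Itgb1, Itgb5 and Gpnmb in each macrophage library, 1 panel per gene, with bars at the mean ± SD of 4 libraries. Open markers are day 0 and filled markers are co-cultures. Cd44 and Gpnmb lie below day 0 in each co-culture, and Itgav lies below it with lung fibroblasts only.

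Itgb5, whose product pairs with alpha V, had 207, 262, 164 and 261 CPM at day 0 and 484, 513, 501 and 603 CPM with fat fibroblasts. It had 294, 261, 277 and 338 CPM with lung and 423, 406, 291 and 464 CPM with mammary fibroblasts. The fat and mammary groups lay above day 0 without overlap, and the lowest lung library fell within the day 0 range. The log2 change was 1.23 ± 0.16 with fat (edgeR adjusted p = 4.58e-06), 0.83 ± 0.15 with mammary (0.000412) and 0.39 ± 0.15 with lung fibroblasts (0.0672). The lung change was called without day 0 replicate 2 or replicate 4 (0.47 in each case). Itgb5 was higher with fat than with lung fibroblasts by 0.84 ± 0.15 log2 (edgeR adjusted p = 0.00248), so that 2 members, Itgav and Itgb5, were called in that comparison. The lung minus mammary difference was -0.44 (0.110), and -0.56 (0.0349) without mammary replicate 3.

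Itgb1, the most widely shared beta chain, had 279, 225, 273 and 246 CPM at day 0. It had 301, 317, 260 and 298 CPM with fat, 385, 301, 290 and 256 CPM with lung, and 310, 331, 333 and 319 CPM with mammary fibroblasts. The mammary libraries lay above day 0, while the fat and lung groups overlapped it. The log2 change was 0.34 ± 0.12 with mammary (edgeR adjusted p = 0.0398), 0.27 ± 0.12 with lung (0.0992) and 0.20 ± 0.12 with fat fibroblasts (0.215). The mammary call ended when libraries were scaled by their totals alone (0.28, edgeR adjusted p = 0.0766) and when any of 5 libraries was left out (day 0 replicates 2 and 4, mammary replicates 2, 3 and 4; 0.27 to 0.33). The lung change was called without lung replicate 4 (0.35).

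Gpnmb moved against Spp1. It had 632, 894, 757 and 593 CPM at day 0 and 246, 383, 249 and 279 CPM with fat fibroblasts. It had 343, 373, 313 and 327 CPM with lung and 271, 325, 293 and 299 CPM with mammary fibroblasts. All co-cultured libraries were below all day 0 libraries, and the co-cultured groups overlapped. The log2 change was -1.31 ± 0.15 with fat (edgeR adjusted p = 8.46e-07), -1.08 ± 0.15 with lung (9.68e-06) and -1.28 ± 0.15 with mammary fibroblasts (1.46e-06). Partner organs differed by -0.23 (fat minus lung), -0.04 (fat minus mammary) and 0.19 (lung minus mammary), with edgeR adjusted p-values of 0.614, 0.931 and 0.541. Over the 16 macrophage libraries Spp1 and Gpnmb had a Pearson r of -0.91 in log2 CPM, and 0.01 once group means were removed.

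Fibroblast transcripts were measured beside these changes, since their markers rose in co-cultured macrophages to 1.48% (fat), 0.950% (lung) and 1.06% (mammary) of the level in the partner fibroblasts, as a median over markers, from 0.0525%, 0.0516% and 0.0196% at day 0. At that share the partner's own level gives 18.8, 7.95 and 12.7 CPM of Spp1, against mean rises of 8866, 8894 and 10349 CPM. For Itgb5 it gives 6.06, 2.41 and 4.95 CPM against 302, 68.9 and 172 CPM. For Itgb1 with mammary fibroblasts it gives 8.98 CPM against 67.3 CPM.

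The genes most like each member across the 16 macrophage libraries, among 5591 genes averaging 20 CPM or more, were found by Pearson r of log2 CPM, as a description. Spp1 was followed most closely by Slc2a1 (r = 0.98, glucose transporter), Jdp2 (0.98, an AP-1 family repressor) and Cd300lf (0.98, an inhibitory receptor), Cd44 by Rtp4 (0.94), Mitd1 (0.93) and Tipin (0.92), and Gpnmb by Crip1 (0.96), Cd300a (0.95) and Rab19 (0.94). With group means removed, r for the 3 genes nearest Spp1 was 0.69, 0.74 and 0.69. The integrin genes had looser neighbours: Trp53i13 (0.84), Havcr2 (0.84) and Senp2 (0.82) for Itgav, Cdkn2d (0.87), Ikbip (0.85) and Cdc42se1 (0.84) for Itgb1, and Enc1 (0.92), Sh2b2 (0.92) and Tmbim1 (0.91) for Itgb5.

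Around the members, other secreted ligands of RGD-binding integrins were mostly higher in co-cultured macrophages. Of 16 such ligands 8 were tested, and 7 were higher with fat, 5 with lung and 7 with mammary fibroblasts, with medians of 4.25, 3.40 and 4.70 log2 against -0.01 for all genes in each comparison. Thbs1 (thrombospondin 1) had 1.76 CPM at day 0 and 39.2, 15.5 and 46.2 CPM with fat, lung and mammary fibroblasts, a log2 change of 4.47, 3.13 and 4.71 (edgeR adjusted p = 1.88e-11, 4.25e-09 and 6.29e-12). Mfge8, a bridge between dying cells and alpha V integrins, was not called with fibroblasts of any organ. Fibroblasts express many of these matrix genes, and the partner's level at its marker share gave 50% or more of the rise for 4 of the 7 with fat (Fbn1, Nid1, Thbs1 and Tnc), 3 of the 5 with lung and 3 of the 7 with mammary fibroblasts (Fbn1, Nid1 and Thbs1 in both). Fbn1 is itself a fibroblast marker that enters the share, so its result was partly fixed in advance.

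Of 12 other integrin chains tested, 4 were higher and 4 lower with fat, 4 and 5 with lung, and 4 and 4 with mammary fibroblasts, with medians of 0.02, -0.02 and 0.18 log2. Among the higher were Itga6, a laminin receptor chain (1.09 with fat), Itga9, whose product also binds osteopontin (1.69 with lung), and Itga11, a collagen receptor chain of fibroblasts (5.53 with mammary fibroblasts, where the partner's level gave 50% or more of the rise). Itgb7, a lymphoid homing chain, had the strongest support among the lower genes with fat (-3.19) and mammary fibroblasts (-3.99), and Itgal, the LFA-1 alpha chain, with lung (-2.98). Itgb2, the abundant leukocyte beta chain, was not called. Of 21 focal adhesion genes 5 were higher and 5 lower with fat, 4 and 2 with lung, and 2 and 3 with mammary fibroblasts (medians -0.04, -0.04 and -0.01). Ptk2, focal adhesion kinase, fell in each by 0.83, 0.72 and 0.94 log2 (edgeR adjusted p = 0.00111, 0.00401 and 0.000366), while Tln1 (talin) was not called in any. Parva, at 0 in all day 0 libraries, was at least 6.13-fold, 3.64-fold and 4.51-fold higher against a floor of 3 counts per library, and the fibroblasts' level gave 50% or more of that rise, as it did for Bcar1 in each comparison and Lims2 with fat fibroblasts.

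Enzymes that modify or cleave osteopontin were mostly higher with fat and lung fibroblasts, with 7 of 8 tested higher in each. With mammary fibroblasts 4 were higher, 1 was lower and 3 were not called. The medians were 0.82 (fat), 1.51 (lung) and 0.63 log2 (mammary). Tgm2, a transglutaminase that crosslinks osteopontin, rose by 2.70 with fat (edgeR adjusted p = 5.77e-09) and 2.13 with mammary fibroblasts (1.01e-07), and Ctsb, the protease cathepsin B, by 1.19 with lung (5.95e-08). Acp5, the tartrate-resistant acid phosphatase that dephosphorylates osteopontin, fell by 0.84 with mammary fibroblasts (0.0171; not called without mammary replicate 2 or 3) and was not called with the others. Genes of hyaluronan and other CD44 partners gave 7 higher and 2 lower of 16 with fat, 8 and 3 with lung, and 8 and 1 with mammary fibroblasts (medians 0.60, 0.45 and 0.58). Mmp14, a membrane protease that sheds CD44, rose by 3.73 with fat and 5.04 with mammary fibroblasts (9.08e-09 and 2.48e-10). Hyal1, a lysosomal hyaluronidase, rose by 1.89 with lung (4.03e-10). Cd74, the MIF receptor that signals with CD44, fell by 3.00 and 2.83 with fat and mammary fibroblasts (0.00163 and 0.00261), and Adam17, a CD44 sheddase, fell by 0.65 with lung (0.000405). The partner's level gave 50% or more of the rise for the enzyme Mmp3 in each comparison and for Cemip with fat and lung fibroblasts.

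Of 16 tested genes related to GPNMB (its family, partners and MiT factors), 2 were higher and 1 lower with fat, 3 and 1 with lung, and 2 and 2 with mammary fibroblasts (medians 0.28, 0.31 and 0.08). Tfeb, a regulator of lysosomal genes, fell by 0.92, 0.96 and 1.20 log2 (edgeR adjusted p = 0.000444, 0.000322 and 2.84e-05). Scarb2, a lysosomal membrane protein, rose by 0.69 and 0.71 with fat and mammary fibroblasts (0.000269 and 0.000225), and Tfec, a MiT factor of macrophages, rose by 1.13 with lung (3.89e-05). Grn (progranulin), the most abundant one not called, was called with fat fibroblasts without day 0 replicate 2 (0.37, 0.0424) or 4 (0.38, 0.0432) or fat replicate 2 (0.37, 0.0422). Lipid-associated macrophage genes, a programme in which Spp1 and Gpnmb are usually listed together, gave 5 higher and 8 lower of 24 with fat, 6 and 7 with lung, and 3 and 7 with mammary fibroblasts (medians -0.16, 0.06 and -0.05). Apoe rose by 2.30 and 2.11 with fat and mammary fibroblasts (3.52e-07 and 1.05e-06), Lgals3 fell by 1.33 and 1.22 in the same comparisons (7.63e-08 and 2.69e-07), and the cholesterol exporter Abcg1 fell by 1.52 with lung (1.79e-06). Of 12 osteoclast genes 2 were higher and 3 lower with fat, 2 and 3 with lung, and 1 and 4 with mammary fibroblasts. Ctsk, the bone collagenase cathepsin K, fell by 1.80, 1.54 and 1.42 (7.31e-07, 4.75e-06 and 1.09e-05). When libraries were scaled by totals alone, the share of calls that were higher over all genes went from 52.3% to 45.7% with fat, 52.5% to 42.3% with lung and 55.0% to 47.2% with mammary fibroblasts.

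**Figure D3:**
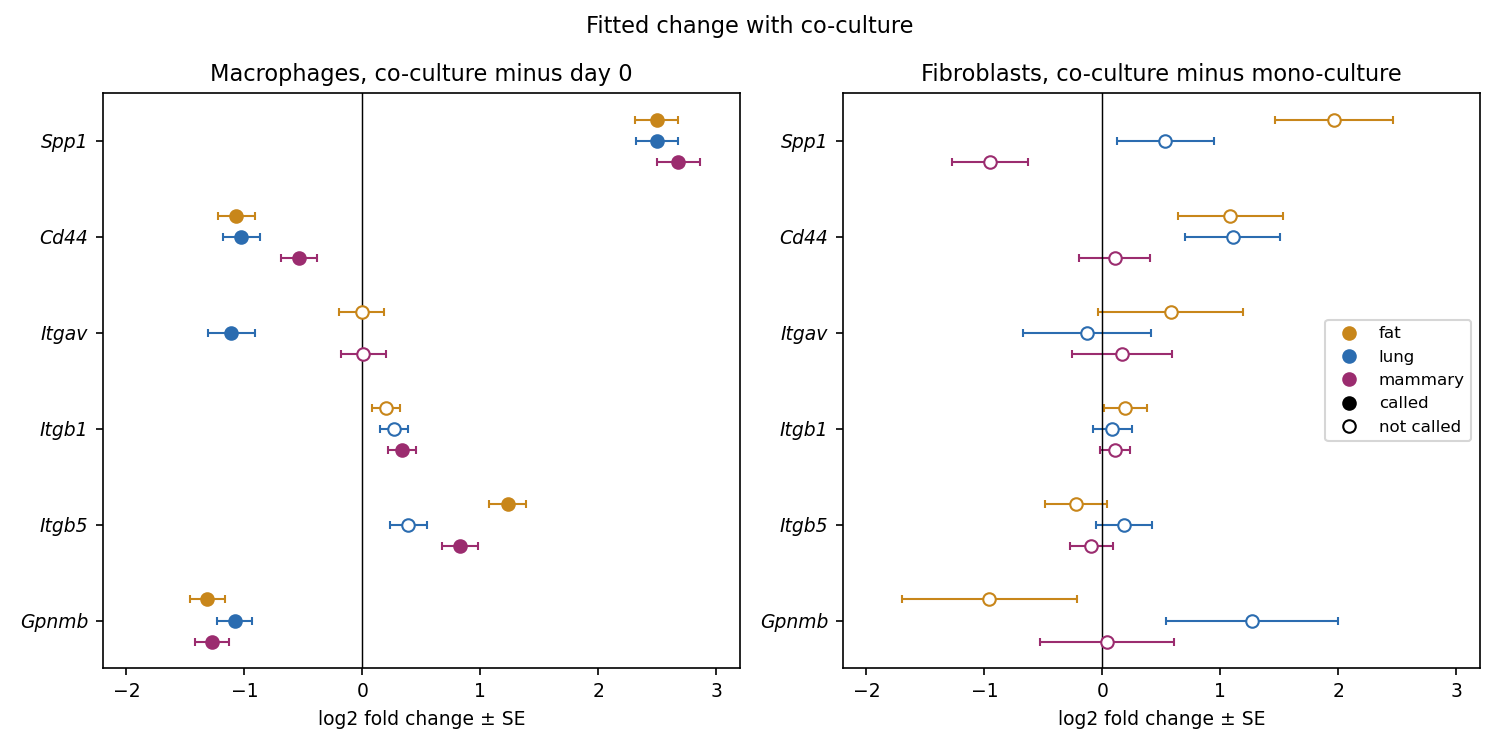
Fitted log2 fold change ± SE of the 6 members for macrophages against day 0 (left) and fibroblasts against mono-culture (right), coloured by organ. Filled markers are called (edgeR adjusted p under 0.05): 13 of 18 in macrophages and 0 of 18 in fibroblasts, without the replicate block.

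In fibroblasts, none of the 6 members was called after co-culture in any organ without the replicate block. With the replicate number as a block, Spp1 in mammary fibroblasts was called (-0.97, edgeR adjusted p = 0.0360), lower in 5 of 5 pairs. Without the block, the background was 0.201% of 12421 genes called in fat, 1.31% in lung and 3.65% in mammary fibroblasts. Each alternative call in this paragraph came from a fit that called more genes in its comparison, with the counts given below. DESeq2 called Spp1 in fat (1.96, adjusted p = 0.00795; 49 of all genes higher and 88 lower), 1 of the 18 tests. Of the 18, 4 had an unadjusted edgeR p under 0.05 (Spp1 in fat and mammary fibroblasts, Cd44 in fat and lung). Cd44 in lung fibroblasts was called when only the groups compared were fitted (1.12, edgeR adjusted p = 0.0300). The square root of the common dispersion, the spread between libraries of a group, was 29.1% in fibroblasts and 16.9% in macrophages.

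Spp1 had 2948, 2763, 1678, 2559 and 1575 CPM in mammary fibroblasts alone and 785, 1973, 1062, 1159 and 973 CPM with macrophages. Each co-culture was lower than the mono-culture of its number, by 0.49 to 1.91 log2, while the groups overlapped through co-culture replicate 2. The log2 change was -0.95 ± 0.32 (edgeR adjusted p = 0.120). With the block, genes called rose from 453 to 856. Without co-culture replicate 2 it was -1.21 (0.0470). In lung fibroblasts Spp1 had 853, 341 and 537 CPM alone and 978, 857 and 676 CPM with macrophages, which overlapped, and the log2 change was 0.54 ± 0.41 (0.840). In fat fibroblasts it had 321 and 330 CPM alone and 697, 2248 and 862 CPM with macrophages. All 3 fat co-cultures were above both mono-cultures, and the log2 change was 1.96 ± 0.50 (0.110). Without fat co-culture replicate 2, the library at 2248 CPM, it was 1.26 (edgeR adjusted p = 0.364).

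The responses of Spp1 in fat and mammary fibroblasts were of opposite sign, and their difference was 2.92 ± 0.60 log2 (edgeR adjusted p = 0.187, unadjusted p = 0.00011; 0.0242% of all genes called). DESeq2 called that difference (2.89, adjusted p = 0.00129; 8 of all genes higher and 19 lower), as did edgeR without mammary co-culture replicate 2 (3.18, 0.0399). With only the groups compared, edgeR called 0 genes in it (756 at an unadjusted p under 0.05). The fat response was smaller without fat co-culture replicate 2, as given above, and was 1.12 in its only same-numbered pair. The fat minus lung difference was 1.43 ± 0.63 (0.741) and the lung minus mammary difference 1.49 ± 0.53 (0.589), where 0% (813 genes at an unadjusted p under 0.05; 46 called by DESeq2) and 0.0966% of all genes were called. With edgeR 0 of these 18 member tests were called, 4 had an unadjusted p under 0.05 (Spp1 in each, Gpnmb in fat minus lung), and DESeq2 called 1.

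Macrophage transcripts were present in the fibroblast libraries and moved with co-culture. Summed over the 15 of 16 markers analysed there, they ran from 611 to 3543 CPM in fat co-cultures against 341 to 427 alone, 1962 to 3019 against 388 to 785 in lung, and 764 to 2229 against 36.4 to 655 in mammary fibroblasts. Adgre1, which encodes the sorted protein F4/80, C1qa, C1qb, Ctss, Itgam, Ptprc and Tyrobp were at 0 in 1 or more mammary libraries and above 0 in all fat and lung ones. As a median over markers this was 2.26% ± 1.90 (SD, n = 3), 3.42% ± 0.23 (n = 3) and 1.66% ± 0.76 (n = 5) of the partner macrophages' level in fat, lung and mammary co-cultures. At that share the macrophages' level gives 244, 369 and 204 CPM of Spp1, where the co-cultured fibroblasts held 1269, 837 and 1190 CPM. The difference between co-culture and mono-culture was 944, 260 and -1114 CPM. Mean Spp1 was highest in mammary mono-cultures, at 12.8% to 24.0% of the macrophages' level, where 4 of 5 libraries held macrophage markers at 0.0510% or less. The remaining library held them at 0.706% and had the most Spp1 (24.0%). In the 3 fat co-cultures the library with the most markers (4.43%) had the lowest Spp1 (697 CPM). The order within lung and mammary co-cultures is not given here. Gpnmb stood on average at 1.61%, 1.42% and 1.05% of the macrophages' level in fat, lung and mammary co-cultures. These means are below those of the median over markers, which was thus too high a share for Gpnmb. Whether it was for Spp1, and the part of macrophage transcripts in the fibroblasts' Spp1, were not tested.

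**Figure D4:**
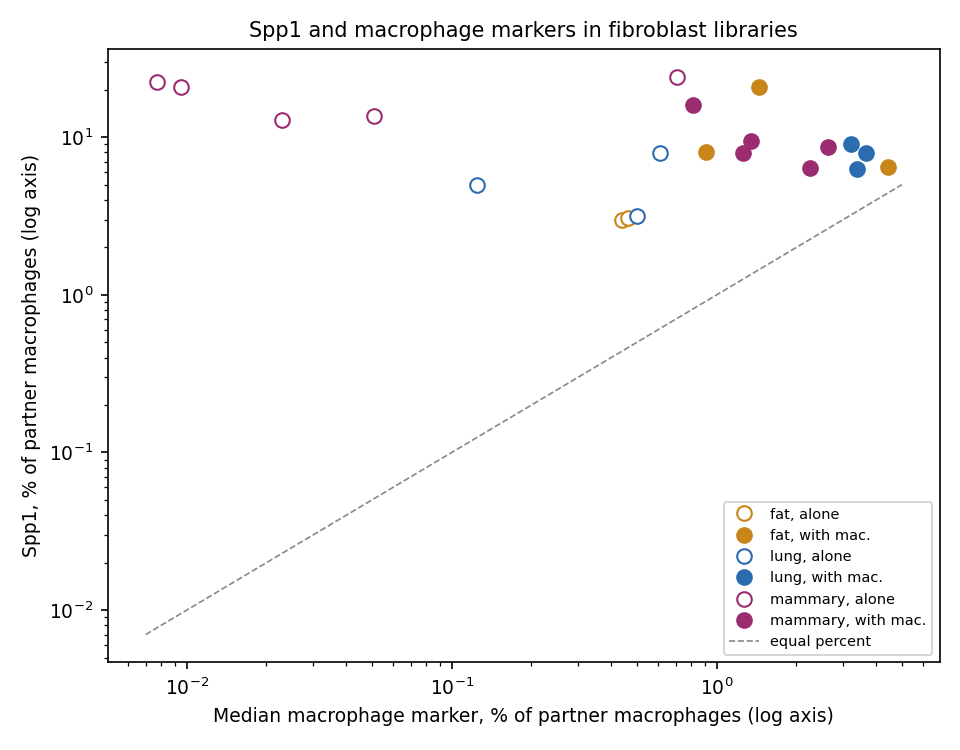
For each fibroblast library, the median macrophage marker (horizontal) and Spp1 (vertical) as a percent of the level in the partner macrophages, both on log axes. All 21 libraries lie above the dashed line of equal percent, and mammary mono-cultures (open purple) lie between 12.8% and 24.0% of Spp1, with markers at 0.0510% or less in 4 of 5 and at 0.706% in the library with the most Spp1.

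Of the receptors in fibroblasts, Cd44 had 13.7, 14.2 and 9.52 CPM in lung fibroblasts alone and 26.6, 32.8 and 21.6 CPM with macrophages. All 3 co-cultures were above all mono-cultures, and the log2 change was 1.11 ± 0.40 (edgeR adjusted p = 0.274). In fat it had 23.1 and 19.6 CPM alone and 34.8, 77.2 and 23.8 CPM with macrophages (1.09 ± 0.45, 0.406), again without overlap. In mammary fibroblasts it had 28.0 to 49.9 CPM alone and 31.1 to 79.3 CPM with macrophages (0.10 ± 0.30, 0.912), with wide overlap. Over the 21 fibroblast libraries Spp1 and Cd44 had a Pearson r of 0.75, and 0.73 once group means were removed, in log2 CPM.

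Itgav spread most in mammary co-cultures, at 88.8, 128, 86.6, 8.43 and 61.3 CPM, against 96.9, 65.5, 87.6, 51.8 and 32.1 CPM alone (0.16 ± 0.42, edgeR adjusted p = 0.897). Replicate 4 was far below all other fibroblast libraries. Itgb1 lay between 463 and 1050 CPM in every fibroblast library, with log2 changes of 0.20 ± 0.19 in fat, 0.08 ± 0.17 in lung and 0.11 ± 0.13 in mammary fibroblasts. Itgb5 had log2 changes of -0.22 ± 0.26, 0.18 ± 0.24 and -0.09 ± 0.18 in the same order, and its fat mono-cultures stood apart from each other at 277 and 676 CPM. Gpnmb was low, with 3 to 63 counts in a fibroblast library. It had 5.00, 5.38 and 4.03 CPM in lung co-cultures and 1.92, 2.03 and 1.94 CPM alone. The log2 change was 1.27 ± 0.73 (edgeR adjusted p = 0.683). The macrophages' level at the marker share gives 11.6 CPM there, more than any of these libraries held.

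**Figure D5:**
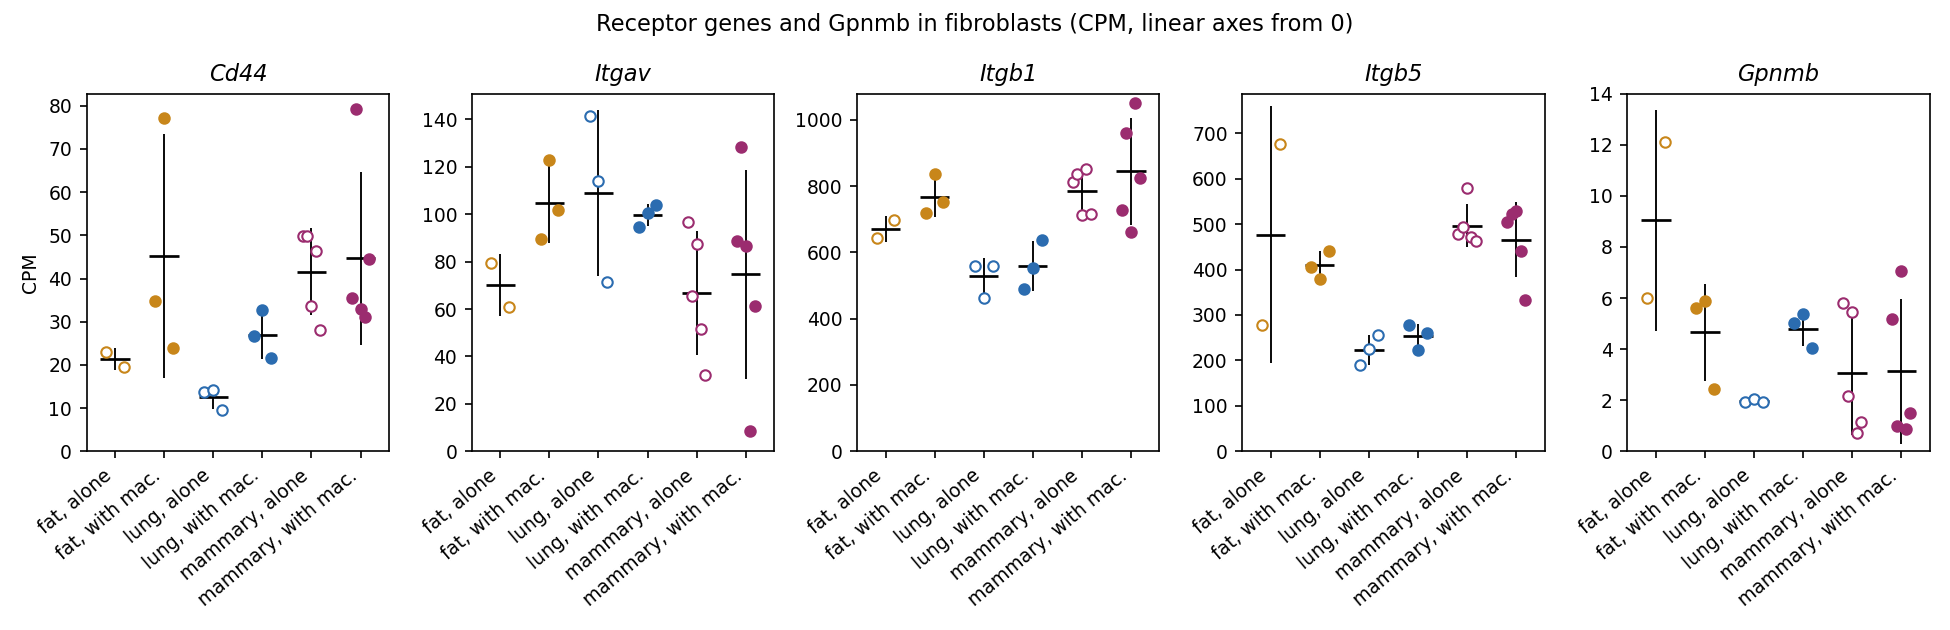
Level in CPM of Cd44, Itgav, Itgb1, Itgb5 and Gpnmb in each fibroblast library, 1 panel per gene, with bars at the mean ± SD. Open markers are fibroblasts alone and filled markers are co-cultures. Itgav of mammary co-culture replicate 4 lies at 8.43 CPM, below all other fibroblast libraries.

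Between organs, members were called in each mono-culture comparison. Spp1 alone was lower in fat than in mammary fibroblasts by -2.82 ± 0.50 log2 (edgeR adjusted p = 0.000379; 1 of 6 members called; 23.3% of all genes called, 9.2% lower) and lower in lung than in mammary fibroblasts by -2.00 ± 0.40 (0.000623). The groups did not overlap: every mammary mono-culture had at least 1575 CPM and the highest of the others had 853 CPM. Between lung and mammary mono-cultures 4 of 6 members were called, all lower in lung, where 40.3% of all genes were called and 19.1% were lower. Besides Spp1 these were Cd44 (-1.74 ± 0.38, 0.00114), Itgb5 (-1.15 ± 0.22, 0.000365) and Itgb1 (-0.57 ± 0.15, 0.00511). The replicate block cannot test these organ differences, since each block lies within 1 organ and its fit compares 1 block of each organ. Between fat and lung mono-cultures 1 member was called, Itgb5, higher in fat by 1.09 ± 0.26 (0.0103; 9.28% of all genes called, 5.48% higher). That call ended without lung replicate 1 (0.99, 0.0510) and with only the groups compared (1.12, 0.0865). The difference was 0.30 without the unnumbered fat library, which holds the 676 CPM and without which 1 fat mono-culture remains. Between fat and mammary mono-cultures Itgb5 was called only without that unnumbered library (-0.83, 0.0274).

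In co-culture the Spp1 levels of the 3 organs overlapped and none of the differences was called: 0.60 for fat minus lung (edgeR adjusted p = 0.421), 0.09 for fat minus mammary (0.878) and -0.51 for lung minus mammary (0.324). Between lung and mammary co-cultures 2 members were called, both lower in lung, where 32.2% of all genes were called and 15.3% were lower. They were Itgb5 (-0.88 ± 0.22, 0.00432) and Itgb1 (-0.59 ± 0.15, 0.00522). Itgb1 lost the call with only the groups compared (-0.60, 0.0521). The replicate block cannot test these differences, since no block spans both organs. Between fat and lung co-cultures edgeR called 0 members (9.41% of all genes), 2 had an unadjusted p under 0.05 (Itgb1 and Itgb5), and DESeq2 called 1. Between fat and mammary co-cultures 0 were called by either tool and 0 had an unadjusted p under 0.05 (25.4% of all genes). Scaling by library totals alone moved the median of all genes up by 0.12 to 0.16 log2 in the lung and fat against mammary comparisons, and the share of calls that were higher in fat or lung from 60.5% to 73.2% (fat) and 52.6% to 63.1% (lung) in mono-culture, and from 52.6% to 65.3% and 52.5% to 67.2% in co-culture. Mesothelial markers, of the cells that line body cavities, summed to 1078 to 3322 CPM in fat and lung fibroblasts and 30.7 to 138 CPM in mammary ones, and their part in these differences was not tested.

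Ordered by mean CPM within fibroblasts, Spp1 ran from mammary alone (2305 ± 635) through fat co-culture (1269 ± 852), mammary co-culture (1190 ± 458), lung co-culture (837 ± 152) and lung alone (577 ± 258) to fat alone (325 ± 6.33; SD, n as above). The place of fat co-culture rests on its replicate 2 (2248 CPM), without which its mean was 780 CPM and the log2 difference from lung and from mammary co-cultures was -0.10 and -0.61. Each group overlapped the next in that order except lung alone and fat alone, whose lowest and highest values were 341 and 330 CPM. The genes most like Spp1 across the 21 fibroblast libraries were Fkbp5 (r = 0.85, and 0.63 with group means removed), Psat1 (0.80) and Trappc4 (0.80). Nearest Cd44 were Alg5 (0.87), Csf1 (0.86, the macrophage growth factor) and Bag2 (0.86), and nearest Gpnmb Ctsb (0.85), Ganab (0.84) and Npc2 (0.84). Nearest Itgav were Wsb1 (0.90), Serinc1 (0.89) and Emc2 (0.88), nearest Itgb1 Map4 (0.94), Rhoc (0.93) and Rassf1 (0.93), and nearest Itgb5 Il17ra (0.90), Bmp1 (0.90) and Mical1 (0.90).

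The lists around the members held few calls in fibroblasts, where over all genes 0.0403% were higher and 0.161% lower in fat, 1.17% and 0.145% in lung, and 2.36% and 1.29% in mammary fibroblasts. In fat fibroblasts 2 genes were called over the 8 lists, both lower: Mcoln1, a lysosomal calcium channel (-1.06, edgeR adjusted p = 0.0472), and Clcn7, a lysosomal chloride transporter (-1.06, 0.0188). Both calls ended when any library of the comparison was left out. In lung fibroblasts Tnc, the matrix protein tenascin C, rose by 1.68 (0.0300) and the hyaluronan synthase Has1 fell by 1.66 (0.0403), and both calls likewise ended without any 1 library. In mammary fibroblasts Cemip, a hyaluronan-degrading protein, rose by 1.77 (0.00228) as 1 of 3 CD44 partner genes higher of 20 tested. The others were Mmp9 and Stab1, and for Stab1 the macrophages' level gave 50% or more of the rise. Mmp9, a protease that cleaves osteopontin, rose by 3.28 (0.00612), the only enzyme of 8 called. Of 15 other integrin chains 1 was higher, Itga2b (0.66, 0.0302; not called without co-culture replicate 1 or without mono-culture replicate 1, 2, 3 or 4), and of 23 focal adhesion genes 1, Fermt3 (1.84, 0.0276; not called without co-culture replicate 1 or 3 or without mono-culture replicate 2, 3, 4 or 5), for which the macrophages' level gave 50% or more of the rise. Of the 16 genes related to GPNMB 2 were lower, with Flcn (folliculin) at -0.77 (0.0122). Of 22 lipid-associated genes 5 were higher, led by Fabp5 (1.09, 0.00604), and 1 was lower, Plin2 (-0.72, 0.000868). For Apoe, Trem2 and Tyrobp the macrophages' level gave 50% or more of the rise. Tyrobp is itself a macrophage marker that enters the share, so its result was partly fixed in advance. Of 9 osteoclast genes 1 was higher and 2 lower, with Clcn7 at -0.66 (0.00647).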

How the data were processed

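Whole-number raw counts per gene were deposited by the authors in 1 table per cell type (11965 genes for macrophages, 14028 for fibroblasts). Per the submitters' processing notes, bcl2fastq, STAR 2.4.2a, HTSeq and build mm10 were used; for other versions, the annotation, strand use and molecular identifiers, the setting was not given in the sources used here. Every gene reached 6 counts in at least 1 library. The authors' normalised tables were not used here. Reads come from 3′ ends, so counts do not scale with transcript length and levels are compared within a gene. The cell types were scaled in separate tables, and levels set across them were not tested.

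Each table was fitted in edgeR 4.0.16 (R 4.3.3) with TMM scaling, filterByExpr (minimum count 10, leaving 10295 and 12421 genes), a robust quasi-likelihood F-test and 1 coefficient per group. In all 18 comparisons p-values were adjusted by Benjamini-Hochberg over the genes tested. The SE of a change is its size over the root of its F statistic. CPM is on TMM-scaled totals. The test was checked on simulated counts. Alternatives were DESeq2 1.42.0, RLE factors, library totals only, no filter, only the groups compared, the replicate block and each library left out. Depth limits low genes most: 3 counts are at most 0.977 CPM. Such floors cover counting error only, whereas p-values reflect how far libraries of a group spread, which may be technical.

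Same-numbered libraries were taken as paired for mammary fibroblasts, where deviations from group means correlated in all 5 pairs (0.293 to 0.555). Mammary replicate 1 was closest to replicate 3 in both cultures. Its chi-square per degree of freedom, larger for less alike libraries, was 13.4 to replicate 3 and 21.7 to 24.1 to the others alone. In co-culture it was 10.3 and 26.3 to 72.2. Whether pairing or such likeness gave the correlations was not tested, and the Spp1 call with the block rests on the pairing. Same-numbered libraries were not taken as paired in lung, where the pairs gave 0.0429, 0.340 and 0.317. Each lung co-culture still correlated most with the mono-culture of its own number, as did each mammary one but replicate 1. Nor were they taken as paired in fat (0.0125, 1 pair) or in macrophages (24 pairs, -0.358 to 0.286). Libraries of 1 group differed beyond counting noise in all 54 pairs.

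The members and the 8 lists were chosen with earlier results of these data known. Named genes are the members and, per list and co-culture comparison, the called gene with the smallest adjusted p in each direction and the most abundant tested gene not called. Others were named after their values were seen: the genes for which the partner's level gave 50% or more of a rise. That measure, the partner's mean CPM times the median percent of its markers, was also added after seeing the data.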

Additional observations from a re-analysis of the deposited data

Results flagged for a closer look

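In each group of 4 or 5 libraries the distance of the most extreme library from its nearest neighbour was compared with the group's range by Dixon's criterion. CPM and log2 CPM were both used, a choice made after the values were seen. Of 36 combinations of a member and a group tested, 3 stood out on each scale and 4 on either. Chance gives about 1 in 20 on 1 scale and more on either, and the combinations share libraries.

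Cd44 was 79.3 CPM in mammary fibroblast co-culture replicate 2, and 31.1 to 44.4 CPM in the other 4 libraries of that group (ratio 0.724 on the CPM scale and 0.619 on the log2 scale). The same library had the highest Spp1, Itgav and second highest Itgb1 levels of its group, at 1973, 128 and 960 CPM. Itgav was 8.43 CPM in mammary co-culture replicate 4 against 61.3 to 128 CPM in the others (0.441 and 0.729). Itgb5 was 579 CPM in mammary mono-culture replicate 3 against 463 to 493 CPM (0.746 and 0.724). In macrophages grown with fat fibroblasts, Cd44 was 34.1 CPM in replicate 3 against 39.5 to 40.3 CPM (0.858 and 0.868).

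The change of Itgav from day 0 differed between partner organs by a test of the difference itself. In macrophages it was 1.10 log2 higher with fat than with lung fibroblasts and differed by -1.12 log2 for lung minus mammary fibroblasts. The change of Itgb5 differed likewise, by 0.84 log2 for fat minus lung fibroblasts. Each of these 3 differences was past the edgeR threshold under every alternative run for it.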

How the results depend on the processing

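Over the 36 member results in co-culture comparisons, 485 alternatives were run: 441 kept the direction and the side of the threshold, 7 lost a call, 8 gained one and 29 changed sign. Over the other 72 member results 998 of 1080 kept both. These count replicate-block fits between fibroblasts of different organs, which cannot test an organ difference. Every change of sign among members was between values not called, and the causes of the changes were not tested. Values are log2 changes or counts of genes called. The replicate block changed the Spp1 call in mammary fibroblasts as given above, and counts of genes called as follows.

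With the replicate block, values were 0.0100 (Itgav) in fat macrophages and 0.41 (Itgb5, gaining a call) in lung macrophages. In fat fibroblasts the value was 0.55 (Itgb5), which is that of the only same-numbered pair, replicate 1. In lung fibroblasts 367 genes were called against 163. In mammary fibroblasts values were -0.97 (Spp1, gaining a call), -0.032 (Itgav), -0.040 (Gpnmb) and -0.0051 (Itga11), with 856 genes called against 453. The response differences of Itgb5 were 0.36 (fat minus lung) and 0.65 (fat minus mammary), the fat response being that of its 1 pair. The values between organs that follow compare 1 block of each organ and cannot test an organ difference. Gpnmb was 0.41 for lung minus mammary mono-cultures, co-cultures gave -0.10 (Spp1) and 0.39 (Gpnmb) for fat minus lung, and -0.35 (Spp1), -0.072 (Cd44) and 0.087 (Itgb5) for fat minus mammary. Of the groups in these fits, fat, lung and macrophage libraries were not taken as paired.

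With only the groups compared, values were 0.0092 (Itgav, fat macrophages), 1.12 (Cd44, lung fibroblasts, gaining a call), 0.0051 (Grn, lung fibroblasts) and -0.012 (Cd44, fat minus mammary co-cultures). In edgeR 0 genes were then called in fat fibroblasts (1460 at an unadjusted p under 0.05), 378 in lung and 146 in mammary fibroblasts. With library totals only, values were -0.0061 (Tln1, lung macrophages), -0.047 (Itgav) and 0.28 (Itgb1, losing its call) in mammary macrophages, 0.023 (Spp1, fat minus lung partner), 0.015 (Itgb1, response lung minus mammary) and 0.093 (Itgb5, fat minus mammary mono-cultures). With no filter Itgav was -0.0018 in mammary macrophages. With DESeq2, Spp1 was 1.96 in fat fibroblasts (gaining a call) and Grn 0.00087 in lung fibroblasts, and 137, 311 and 736 genes were called in fat, lung and mammary fibroblasts.

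With each library left out in turn, lowest and highest values in macrophages were as follows. Against day 0 with fat fibroblasts, Itgav ran from -0.13 to 0.095 and Acp5 from -0.19 to 0.28. With lung, Itgb1 ran from 0.14 to 0.35, Itgb5 from 0.27 to 0.47 and Tln1 from -0.075 to 0.14. With mammary fibroblasts, Cd44 ran from -0.64 to -0.40, Itgav from -0.13 to 0.10, Itgb1 from 0.27 to 0.38, Tln1 from -0.18 to 0.014, Grn from -0.016 to 0.17 and Tcirg1 from -0.18 to 0.049. Between fat and lung partners, Spp1 ran from -0.10 to 0.095, Cd44 from -0.10 to 0.041 and Itgb1 from -0.15 to 0.062. Between fat and mammary partners, Itgav ran from -0.13 to 0.10 and Gpnmb from -0.20 to 0.039, and between lung and mammary Itgb1 from -0.19 to 0.011.

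In fibroblasts, leaving out each library gave 0 to 7 genes called in fat (25 with all; with 0 called in edgeR, 1048 without co-culture replicate 1 and 781 without the unnumbered mono-culture had an unadjusted p under 0.05), 60 to 121 in lung (163) and 265 to 484 in mammary fibroblasts (453). The lowest in lung was without mono-culture replicate 3, the library with unlike labels. Where 1 fat mono-culture remained, it was assumed to vary like the other groups. In fat, Itgb5 ran from -0.74 to 0.55 and Cd63 from -0.22 to 0.056. In lung, Itgav ran from -0.36 to 0.10, Itgb1 from -0.020 to 0.17, Ctsd from -0.12 to 0.13, Grn from -0.11 to 0.13, Cd63 from -0.17 to 0.041 and Ctsk from -0.48 to 0.15. In mammary fibroblasts, Spp1 ran from -1.21 to -0.84, Cd44 from -0.21 to 0.24, Itgav from -0.12 to 0.48, Itgb5 from -0.14 to 0.0075, Gpnmb from -0.37 to 0.40 and Itga11 from -0.19 to 0.37. Response differences ran from -0.65 to 0.29 (Cd44) and -0.93 to 0.37 (Itgb5) for fat minus lung, -0.032 to 0.15 (Itgb1) and -0.65 to 0.65 (Itgb5) for fat minus mammary, and -0.13 to 0.068 (Itgb1) for lung minus mammary. Between fat and mammary mono-cultures, Itgav ran from -0.10 to 0.26 and Itgb5 from -0.83 to 0.47. Between fat and lung co-cultures, Spp1 ran from -0.10 to 0.89, Itgav from -0.057 to 0.17 and Gpnmb from -0.26 to 0.27, and between fat and mammary co-cultures Spp1 from -0.61 to 0.39 and Cd44 from -0.61 to 0.33.

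Depth limits Gpnmb in fibroblasts most, where a library held 3 to 63 of its counts. Fat fibroblasts alone had 2 libraries.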
